A study of Mus musculus with 25 samples.

Results

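The genes described here are 9 ligands of the BMP and GDF family (Bmp2, Bmp3, Bmp4, Bmp5, Bmp6, Bmp7, Gdf5, Gdf6 and Gdf10), chosen by name from the 37406 genes in the expression table. Their transcripts were measured in 25 RNA-seq libraries of the embryonic mouse palate. All libraries came from wild-type CD1 embryos at E14.5, shortly after the shelves meet at the midline, and no treatment was applied. The anterior and the posterior palate were each cut by laser capture microdissection into medial, lateral, oral and nasal compartments, with 3 replicates of each and 4 of the anterior nasal compartment. Values are RPKM, the reads on a gene scaled to the length of its transcript and to the depth of its library, so that levels may be set side by side between genes.

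BMPs and GDFs are secreted dimers that are cut from longer precursors by proprotein convertases and bind pairs of type I and type II receptor kinases, which phosphorylate Smad1, Smad5 and Smad9. Phosphorylated Smads enter the nucleus with Smad4 and switch on genes such as the Id genes, while secreted antagonists such as noggin and chordin hold the ligands away from the receptors. In the palate this pathway is known for its part in growth of the shelf mesenchyme, in exchange of signals with the epithelium and in the formation of the palatal bones.

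The RPKM values of a library imply 1.64 to 6.56 M counted reads, with a median of 3.27 M. These are the reads behind the values, fewer than the sequenced reads the study's methods give, and duplicates and reads with several alignments had been taken out. All 6 mesenchyme markers (Osr2, Prrx1, Twist1, Pdgfra, Col1a1, Lum) were present, with a summed level of 497 to 880 RPKM in each library. Epithelial, endothelial and red cell markers were also read in every library, at summed levels of 23.1 to 177, 58.2 to 194 and 318 to 970 RPKM, so each library mixed cell types. In such bulk samples fewer cells of a type and less RNA per cell cannot be told apart. Posterior medial replicate 2 stood apart, with 7.54% of expressed genes listed at 0 against at most 1.77% in any other library, and its Bmp5 and Bmp6 were both listed at 0. Posterior medial replicate 1 and posterior lateral replicate 1 were each the only library of their sequencing run, and the study's tables give the alignments of both a name with the term ERK2_WT that the sample labels do not carry. The study calls its replicates biological, but no source used here says that they came from separate embryos or litters, so p-values measure the spread between these libraries.

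Reference promoter sequence was held for 4 of the 9 ligands: Bmp4, Bmp5, Bmp6 and Gdf10. The windows of Bmp6 and Gdf10 are shown because these ligands were both highest in the posterior nasal compartment. Each runs for 250 bases up to the transcription start on the plus strand (RefSeq, GRCm38.p6), at chr13:38345466-38345715 for Bmp6 and chr14:33923337-33923586 for Gdf10. Capitals mark the GC box GGGCGG on either strand, here its reverse complement.
Bmp6: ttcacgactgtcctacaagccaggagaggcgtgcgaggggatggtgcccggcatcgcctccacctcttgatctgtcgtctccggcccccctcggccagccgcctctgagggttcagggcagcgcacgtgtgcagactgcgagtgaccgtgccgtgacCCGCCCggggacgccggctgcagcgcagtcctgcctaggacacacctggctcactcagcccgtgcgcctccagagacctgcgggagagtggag
Gdf10: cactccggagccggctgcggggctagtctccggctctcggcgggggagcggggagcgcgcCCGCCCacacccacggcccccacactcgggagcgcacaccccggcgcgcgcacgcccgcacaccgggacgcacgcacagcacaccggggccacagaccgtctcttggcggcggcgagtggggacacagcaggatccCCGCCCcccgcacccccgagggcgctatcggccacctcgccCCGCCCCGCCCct
The GC box occurred 4 times in the Gdf10 window, the last pair sharing a base, and 1 time each in those of Bmp6 and Bmp4. It was absent from the Bmp5 window and present in 32.7% of all 32851 promoter windows of this length. The Gdf10 window was 78.8% G and C and the Bmp6 window 68.8%, against 63.2% for Bmp4, 42.8% for Bmp5 and a median of 52.4% over all windows. The TATA box TATAAA, in 12.4% of all windows, was in none of these 4 on either strand. The homeobox core TAATTA, in 4.84%, and the palindrome GGCGCC, in 9.59%, were absent from them too. The Smad element CAGACA, in 17.1% of all windows, was found 1 time in the Bmp5 window, 135 bases before the start, and not in the other windows. Such matches describe the letters of these windows and say nothing of binding.

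Bmp2 and Bmp4, the founding members of the family and both able to induce bone, were the ligands most steadily detected. Bmp2 (chr2:133378935-133388621, mm9) read 36.1, 33.0 and 29.5 RPKM in the 3 anterior medial libraries. It read 27.4, 31.5, 34.7 and 27.3 RPKM in the 4 anterior nasal ones. These 7 libraries lay above all 18 others, whose Bmp2 levels ran from 10.9 to 20.9 RPKM. Below this step the means of the other 6 compartments fell from 17.4 ± 3.31 (SD, n = 3) RPKM in anterior oral to that of posterior lateral, whose libraries read 12.7, 14.0 and 10.9 RPKM, and no neighbours in that order were separated.

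Bmp4 (chr14:47003196-47010274, mm9) was the most abundant of the 9 ligands in 16 of 25 libraries. In posterior lateral it read 137, 36.2 and 37.3 RPKM, and in posterior medial 132, 44.0 and 27.4 RPKM. The values of 137 and 132 belong to the libraries that were alone in their sequencing run, and the other 23 libraries lay between 6.45 and 51.1 RPKM. Without them the means were 36.8 RPKM in posterior lateral and 35.7 in posterior medial (n = 2 each), down from 70.3 ± 58.1 and 67.8 ± 56.2 (SD, n = 3). Bmp4 was lowest in posterior nasal, at 15.6, 18.6 and 8.03 RPKM, and in anterior medial, at 6.45, 15.6 and 25.4 RPKM. No neighbouring compartments in the order of Bmp4 levels were separated.

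Bmp3 and Gdf10, a pair of close relatives of which Bmp3 is known to oppose the bone-inducing BMPs, varied most between compartments. Bmp3 (chr5:99283458-99309979, mm9) read only 1.94, 1.28 and 4.22 RPKM in anterior medial, below all 22 other libraries. In posterior medial it read 66.6, 37.7 and 65.0 RPKM, a mean 22.8 times that of anterior medial. The remaining 6 compartments had means between 11.8 ± 7.45 (SD, n = 4) in anterior nasal and 25.2 ± 16.4 (SD, n = 3) in posterior lateral. Their libraries overlapped from each compartment to the next, and the wide SD of posterior lateral came from values of 23.9, 9.50 and 42.2 RPKM.

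Gdf10 (chr14:34736773-34748468, mm9) read 53.5, 38.1 and 34.3 RPKM in posterior nasal. All 3 lay above each of the other 22 libraries, the highest of which read 26.2 RPKM in posterior lateral. The order went on through posterior lateral (20.7 ± 7.50, SD), posterior medial (12.3 ± 5.22), posterior oral (10.6 ± 1.78), anterior nasal (8.23 ± 4.07) and anterior medial (7.65 ± 1.92 RPKM). A second step without overlap separated anterior medial from anterior oral, at 2.92, 4.11 and 1.16 RPKM. Anterior lateral was lowest, at 3.15, 0.531 and 2.94 RPKM, a mean 19.0 times below that of posterior nasal.

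Bmp5, Bmp6 and Bmp7 form a further class of the family, whose members overlap in function in several organs. Bmp5 (chr9:75623172-75746824, mm9) was low, with no library above 9.49 RPKM. It read 1.51, 9.49 and 9.07 RPKM in posterior lateral, 8.05, 3.60 and 4.59 in posterior oral and 5.28, 4.21 and 5.05 in posterior nasal. All posterior nasal libraries lay above those of anterior nasal (0.732 to 3.68 RPKM), the next compartment in the order. The medial compartments were lowest, with 1.21, 0.121 and 0.122 RPKM in anterior medial and 0.686, 0 and 1.44 in posterior medial.

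Bmp6 (chr13:38437585-38591597, mm9) was highest in posterior nasal, at 24.4, 15.5 and 16.2 RPKM, and all 3 libraries lay above those of anterior medial (6.60 to 12.3 RPKM), the next compartment. A library of anterior oral (16.1 RPKM) lay within the posterior nasal range, and a library of posterior medial (15.0 RPKM) lay just below it. The others of these compartments read at most 3.98 and 6.08 RPKM. Bmp7 (chr2:172695189-172765794, mm9) differed least of the ligands above 1 RPKM, from a mean of 15.2 ± 7.59 RPKM in anterior medial to 6.08 ± 1.60 in posterior oral (SD, n = 3). Its libraries overlapped at every step of the order. In anterior oral its 3 replicates read 1.58, 2.85 and 18.2 RPKM, so most of the spread of Bmp7 lay within a compartment.

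Gdf5 and Gdf6 are known from forming joints, and Gdf6 also from skull sutures. Gdf6 (chr4:9771519-9789492, mm9) read 6.94, 5.75, 4.52 and 4.66 RPKM in anterior nasal. These 4 libraries lay above all 21 others, which ran from 0.361 to 3.81 RPKM, and rest on few reads, since Gdf6 had a median of 28 reads a library and at most 80. Gdf5 (chr2:155766761-155771100, mm9) stayed under 0.920 RPKM, was listed at 0 in 11 of 25 libraries and drew about 42.8 reads in all 25 together, too few to order the compartments. Neither gene reached the expression minimum of any comparison.

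**Figure D1:**
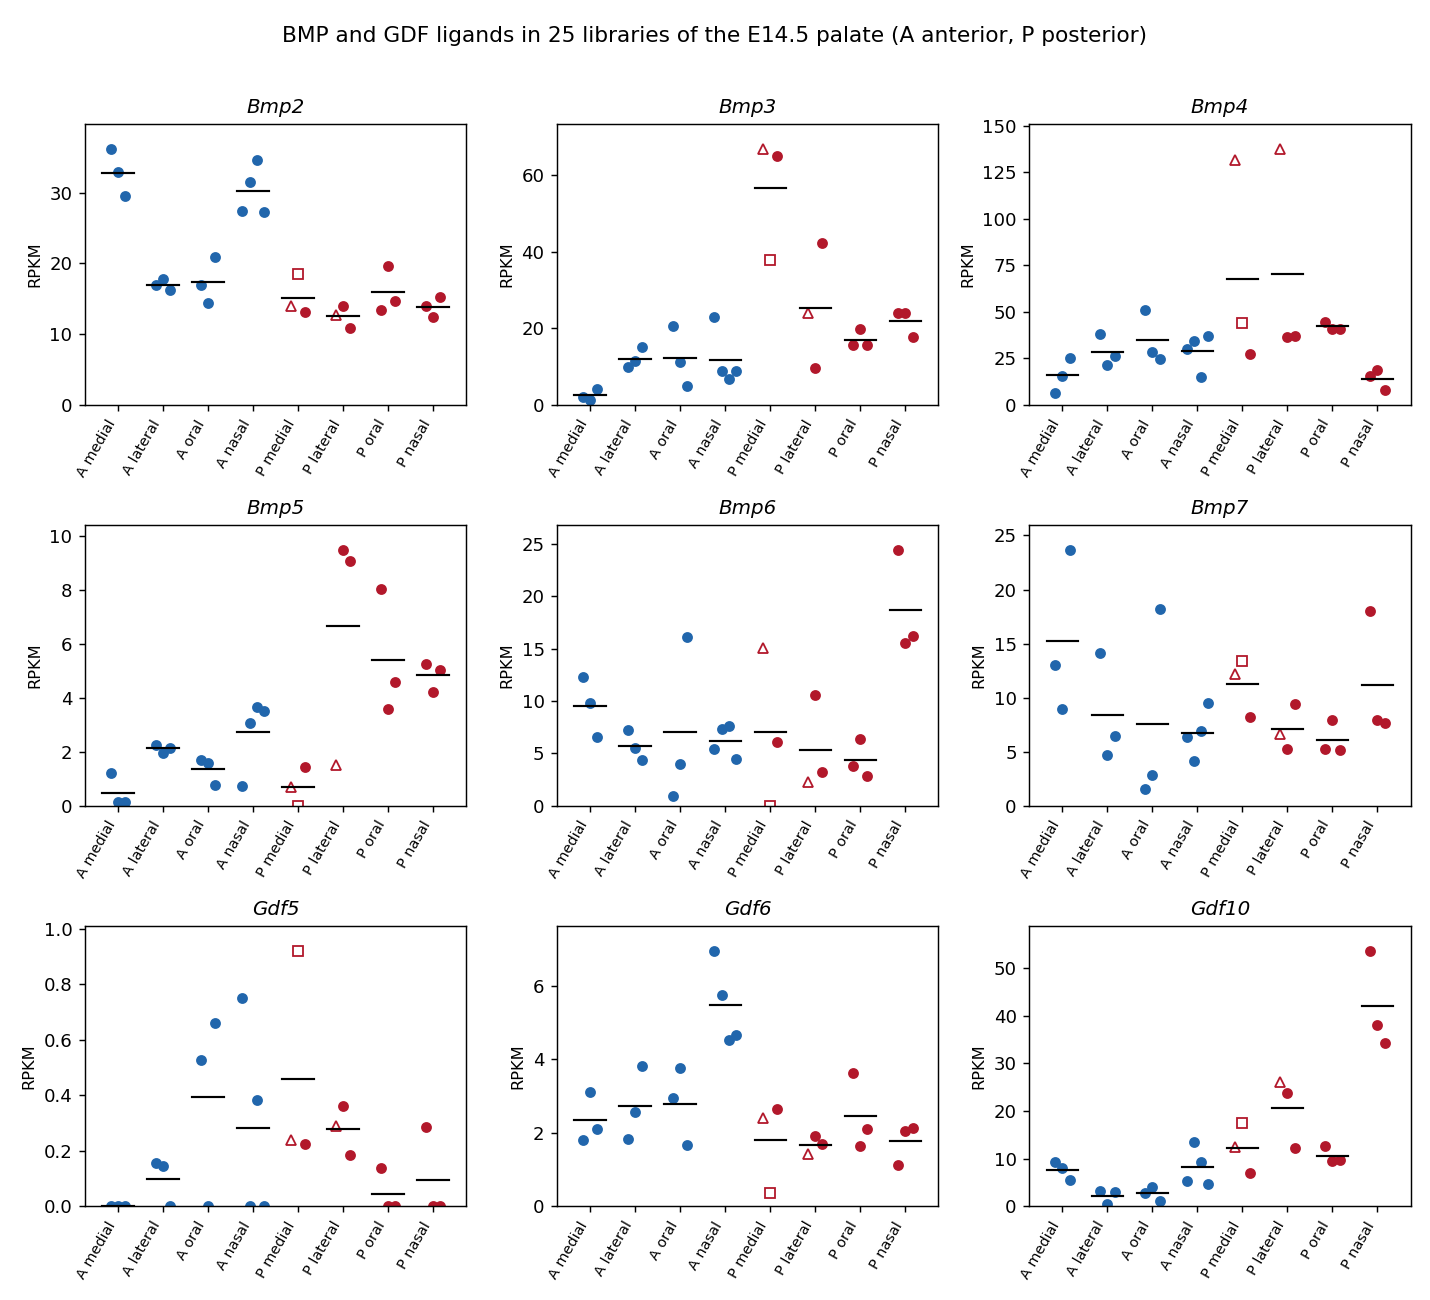
RPKM of each of the 9 ligands (y axes, linear, from 0, each panel with its own range) in the 8 compartments (x axes). Points are libraries (blue anterior, red posterior), black lines are means, open triangles are the 2 libraries alone in their sequencing run and the open square is posterior medial replicate 2. Bmp2 stands high in anterior medial and anterior nasal (27.3 to 36.1 RPKM), Gdf10 in posterior nasal (34.3 to 53.5 RPKM), and both Bmp4 values above 100 are triangles (132 and 137 RPKM).

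Added up, the 9 ligands came to 66.2 to 255 RPKM a library. The ligand with the largest share changed with position. Bmp2 led in 4 libraries, all 3 of anterior medial and 1 of anterior nasal, and made up a mean of 38.6% of the sum in anterior medial against 9.09% in posterior lateral. Gdf10 led in the 3 posterior nasal libraries, with a mean share of 32.5% there against 2.66% in anterior lateral. Bmp3 led in 2 posterior libraries and rose from a mean share of 2.77% in anterior medial to 34.7% in posterior medial. Bmp4 led in the remaining 16, with mean shares from 10.9% in posterior nasal to 42.3% in posterior lateral. The posterior lateral mean rests on 64.7% in the library alone in its sequencing run, against 32.6% and 29.55% in the others. In posterior oral the mean share was 40.6%.

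**Figure D2:**
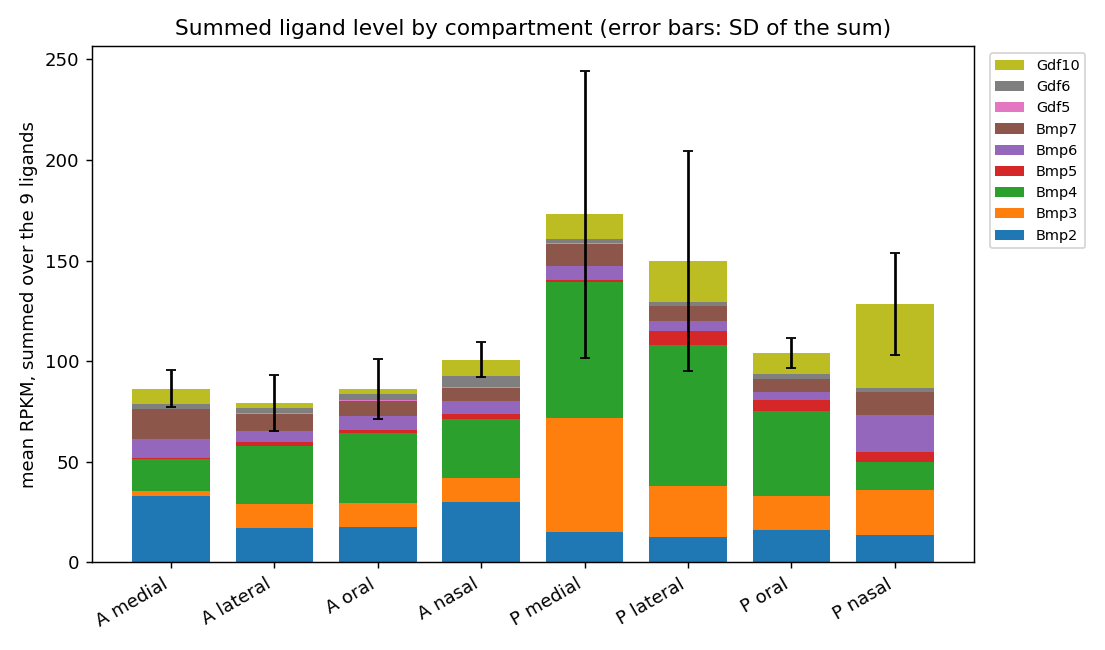
Mean RPKM of the 9 ligands stacked by compartment (y axis, linear, from 0; n = 3, and 4 for anterior nasal), with the SD of the sum as error bars. The stacks run from 79.0 RPKM in anterior lateral to 173 in posterior medial, where the SD of 71.5 includes a library alone in its sequencing run, and the Gdf10 layer is thickest in posterior nasal.

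Whether a ligand varied over the 8 compartments at all was tested with 1 model of the 25 libraries, over the genes that reached 5 RPKM in 3 libraries or more. In this test 4.42% of 11913 genes had a limma adjusted p (Benjamini-Hochberg) under 0.05. The 7 ligands tested included 4 that were called: Bmp2 (2.14e-04), Gdf10 (3.88e-04), Bmp3 (9.92e-04) and Bmp5 (0.0269). Bmp5 reached the minimum only through posterior libraries, where it is high, since no anterior library lay above 3.68 RPKM. Its call is therefore no independent sign of a difference between the ends, though it was kept with no filter on low values. Bmp4 (0.154), Bmp7 (0.821) and Bmp6 (0.886) were not. The Bmp5 call was lost in 8 of 29 alternatives, with a limma adjusted p of up to 0.0860, among them the replicate block (0.0612) and leaving out anterior medial replicate 2 or 3 (0.0860 and 0.0848).

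The question of which ligands differ along the length of the palate was put to the 12 posterior and 13 anterior libraries together. Bmp2 was lower and Bmp3 and Gdf10 were higher in the posterior palate, while Bmp4, Bmp6 and Bmp7 did not pass the test. Bmp2 ran from 10.9 through a median of 14.0 to 19.7 RPKM in the posterior libraries and from 14.4 through 27.3 to 36.1 in the anterior ones. Bmp3 ran from 9.50 through 23.9 to 66.6 RPKM in the posterior and from 1.28 through 8.74 to 22.9 in the anterior libraries. Gdf10 ran from 7.02 through 15.1 to 53.5 RPKM in the posterior and from 0.531 through 4.80 to 13.5 in the anterior libraries. In each case the ends of the ranges overlapped. Separate ranges were seen for 0.267% of all genes and for 0 of the 6 ligands tested.

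On log2(RPKM + 0.1), the scale of all fold changes here, the posterior minus anterior difference was -0.73 (SE 0.15, adjusted p = 0.00390) for Bmp2 by limma with Benjamini-Hochberg adjustment. It was 1.75 (SE 0.40, limma adjusted p = 0.00941) for Bmp3 and 2.07 (SE 0.41, limma adjusted p = 0.00268) for Gdf10. Of the 8608 genes that reached 10 RPKM in 6 libraries or more, 3.32% were called, against 3 of the 6 ligands tested. From the anterior libraries alone neither Bmp3 nor Gdf10 would have reached this minimum, and with no filter on low values both were called too (limma adjusted p = 0.0167 and 0.00524). The median log2 fold change was 0.03 over all genes. Bmp4 was at 0.57 (SE 0.37, limma adjusted p = 0.505), Bmp6 at -0.23 (SE 0.61) and Bmp7 at 0.17 (SE 0.33). The 3 calls held in all 36 alternatives, with limma adjusted p of at most 0.0391 for Bmp2, 0.0367 for Bmp3 and 0.00842 for Gdf10. The pooled values covered unequal differences between compartments: that of Bmp3 was 4.57 in medial against 0.83 in lateral, 0.69 in oral and 1.05 in nasal, and that of Bmp2 was -0.13 in oral. Sequencing runs that held both ends of a compartment gave 2 posterior and 3 anterior libraries in medial, and 2 and 1 in lateral. In oral and in nasal they gave only 1 and 1, from the same run. Within these runs the posterior mean, or single value, was lower for Bmp2 and higher for Bmp3 and Gdf10 in 4 of 4 compartments. Single libraries of Bmp3 and Gdf10 crossed. Those log2 differences ran from -1.07 to -0.39 for Bmp2, from 0.42 to 4.43 for Bmp3 and from 0.56 to 3.45 for Gdf10.

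Gdf6 fell below the minimum of this comparison. With no filter on low values its posterior minus anterior log2 difference was -0.84 (SE 0.27, limma adjusted p = 0.134), with medians of 1.98 RPKM in the posterior and 3.11 RPKM in the anterior libraries. Bmp5, also below it, was at 1.04 (SE 0.63, limma adjusted p = 0.527), with medians of 4.40 and 1.69 RPKM.

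**Figure D3:**
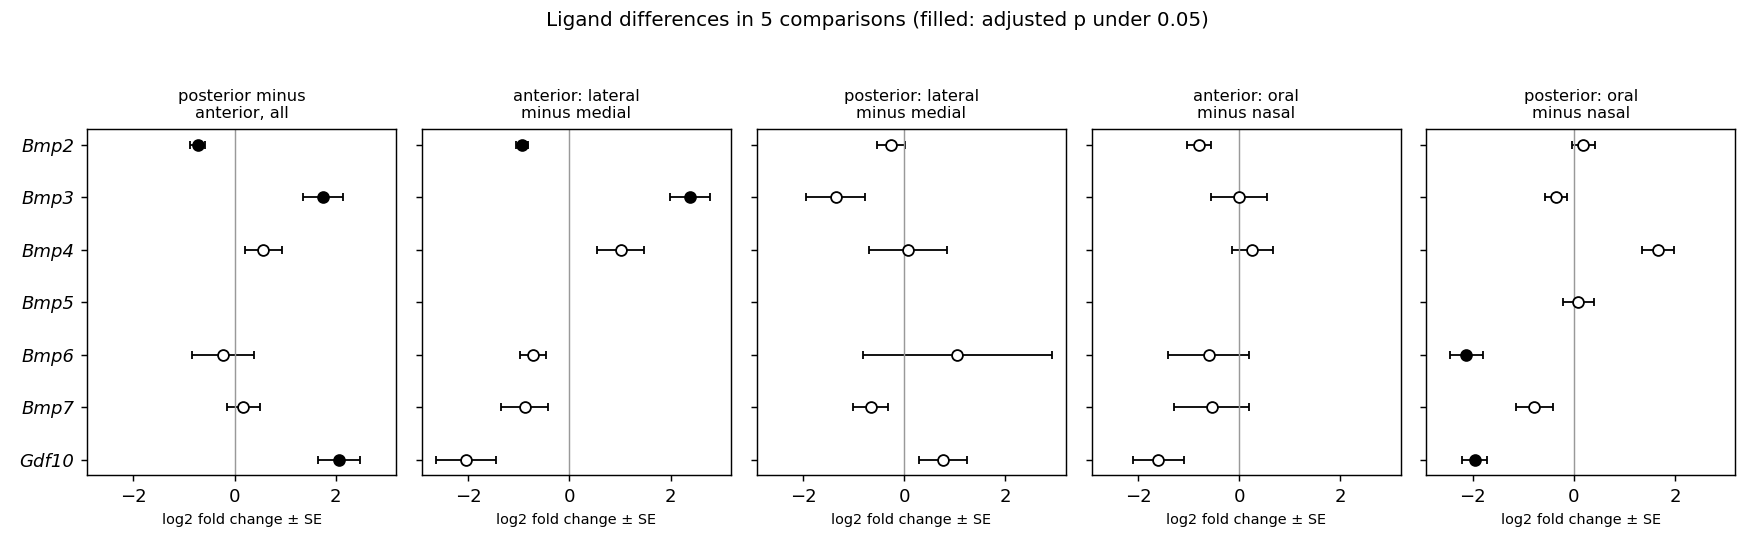
Log2 fold change of each tested ligand (x axes, points, with SE as bars) in the 5 comparisons of the study. Filled points had a limma adjusted p under 0.05. Bmp2 is at -0.73 and Gdf10 at 2.07 between posterior and anterior, and Bmp6 and Gdf10 lie near -2 between posterior oral and posterior nasal. A ligand with no point did not reach the expression minimum.

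The same libraries were then compared end with end inside each compartment, in the model of all 25 libraries, where 7 ligands were tested. These differences share their libraries with the comparison of all posterior and anterior libraries. In the medial compartment 1.66% of genes were called and 2 of 7 ligands: Bmp3 was higher posteriorly by 4.57 (SE 0.55, limma adjusted p = 4.79e-05) and Bmp2 was lower (-1.12, SE 0.19, limma adjusted p = 0.00297). The 3 posterior medial libraries of Bmp3, at 37.7 to 66.6 RPKM, lay far above the 3 anterior medial ones, at 1.28 to 4.22. With the sequencing run as a covariate Bmp3 was still called (4.43, limma adjusted p = 0.00469), and Bmp2 was not, at a difference of -1.07 (limma adjusted p = 0.0645). Gdf10 was at 0.61 (SE 0.56, limma adjusted p = 0.614), with overlapping ranges. Bmp4 was at 1.98 (SE 0.59, limma adjusted p = 0.117), at 1.34 without the library alone in its run, and called only without posterior medial replicate 3 (2.47, limma adjusted p = 0.0249).

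In the lateral compartment 0.865% of genes and 1 of 7 ligands were called. Gdf10 read 26.2, 23.7 and 12.2 RPKM in posterior lateral against 3.15, 0.531 and 2.94 in anterior lateral, a difference of 3.42 (SE 0.56, limma adjusted p = 0.00241). The ranges did not overlap, but with the sequencing run as a covariate the difference was 2.49 and the limma adjusted p was 0.773. Bmp2 (-0.44, SE 0.19, limma adjusted p = 0.797) and Bmp3 (0.83, SE 0.55) were not called in lateral. In the oral compartment 0.512% of genes and 0 of 7 ligands were called by limma, with 7.21% of genes and 2 of 7 ligands at an unadjusted p under 0.05. These were Gdf10, at 2.08 (SE 0.56, limma adjusted p = 0.180), and Bmp5, at 1.91 (SE 0.87, limma adjusted p = 0.677). In both the posterior oral libraries all lay above the anterior oral ones, but Bmp5 reached the minimum of this model only through posterior libraries.

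Bmp2 (-0.13, SE 0.19) and Bmp3 (0.69, SE 0.55) were not called there either, and the ranges of both overlapped.

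In the nasal compartment 1.91% of genes and 2 of 7 ligands were called. Bmp2 was at 13.9, 12.4 and 15.2 RPKM in posterior nasal against 27.3 to 34.7 in anterior nasal, a difference of -1.12 (SE 0.18, limma adjusted p = 0.00188). Gdf10 was at 34.3 to 53.5 RPKM in posterior nasal against 5.26, 13.5, 9.36 and 4.80 in anterior nasal, a difference of 2.44 (SE 0.53, limma adjusted p = 0.0173). Both pairs of ranges were separate. The Gdf10 call was lost with the replicate block (limma adjusted p = 0.0652), which drops anterior nasal replicate 4, and on leaving out anterior nasal replicate 1 or 4 or any posterior nasal replicate (0.0597 to 0.125). With the sequencing run as a covariate neither ligand was called, at larger differences of -1.33 for Bmp2 (limma adjusted p = 0.158) and 3.64 for Gdf10 (limma adjusted p = 0.106). Bmp3 was at 1.05 (SE 0.51, limma adjusted p = 0.436), with overlapping ranges. Among the ligands tested, those with separate ranges numbered 3 of 7 in medial, 2 in lateral, 2 in oral and 4 in nasal, where 12.5%, 19.2%, 8.89% and 20.2% of all genes had them. The counts in oral and nasal include Bmp5, which reached the minimum only through posterior libraries.

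**Figure D4:**
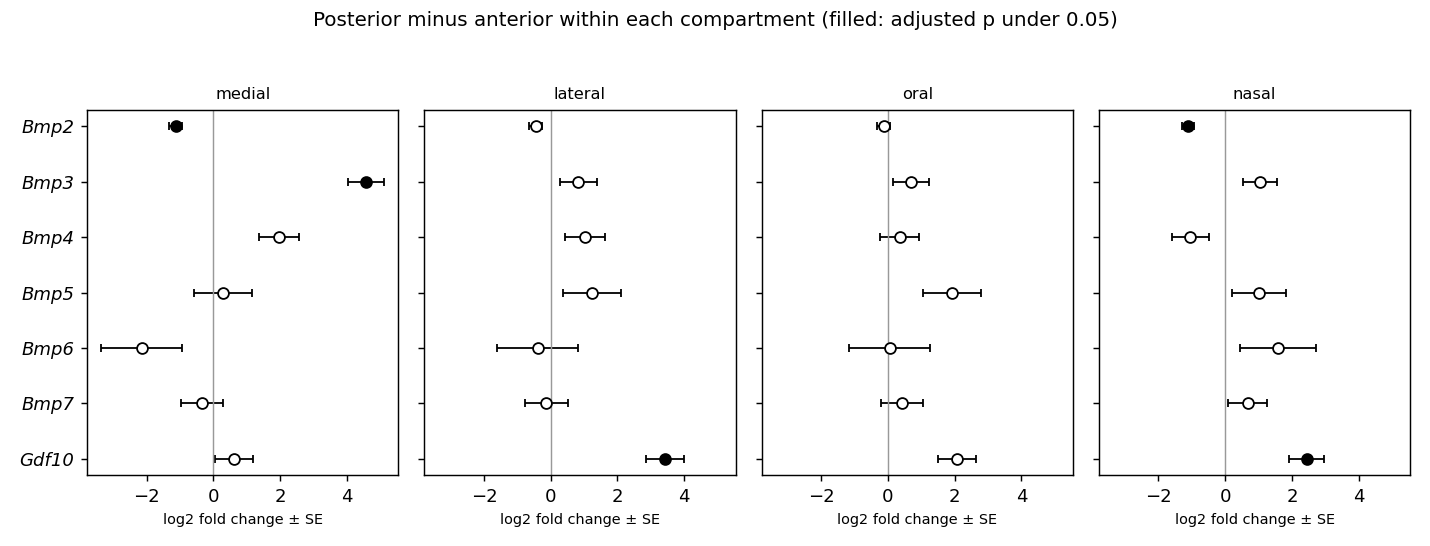
Posterior minus anterior log2 fold change of 7 ligands (x axes, points, with SE as bars) in the medial, lateral, oral and nasal compartments. Filled points had a limma adjusted p under 0.05. Bmp3 is at 4.57 in medial, and Gdf10 lies at 3.42 in lateral and 2.44 in nasal.

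Lateral was set against medial to ask what distinguishes the sides of a shelf. In the anterior palate Bmp2 was lower in lateral, and Bmp3 was higher, a call that rests on the filter. Bmp2 read 17.0, 17.7 and 16.3 RPKM in lateral and 36.1, 33.0 and 29.5 in medial, a log2 difference of -0.94 (SE 0.12, limma adjusted p = 0.00949). Bmp3 read 9.76, 11.5 and 15.0 RPKM in lateral and 1.94, 1.28 and 4.22 in medial, a difference of 2.38 (SE 0.39, limma adjusted p = 0.0244). Neither pair of ranges overlapped. Of 10427 genes that reached 5 RPKM in 3 of the 6 libraries, 2.51% were called, and of 6 ligands 2. Bmp3 reached this minimum only through the lateral libraries, where it is high, and so had to differ. With no filter neither Bmp3 (limma adjusted p = 0.107) nor Bmp2 (0.0547) was called.

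Gdf10 was also separate between these compartments, at 0.531 to 3.15 RPKM in lateral and 9.27, 8.14 and 5.53 in medial, but its difference of -2.04 (SE 0.60) had a limma adjusted p of 0.147. It reached the minimum only through the medial libraries, so that its separation, like that of Bmp3, was set by the filter. Ranges were separate for 21.3% of all genes here. Bmp5, below the minimum, was separate too, at 1.97 to 2.27 RPKM in lateral and 0.121 to 1.21 in medial. With no filter its difference was 2.48 (SE 0.74, limma adjusted p = 0.266). Bmp4 was at 1.02 (SE 0.47, limma adjusted p = 0.370), Bmp6 at -0.72 (SE 0.26) and Bmp7 at -0.88 (SE 0.46), all with overlapping ranges. The anterior medial libraries were all from 1 sequencing run that held no anterior lateral library, so run and compartment cannot be told apart, and with the run as a covariate no gene was called. The Bmp2 call was lost without anterior lateral replicate 3 (limma adjusted p = 0.0662), and the Bmp3 call without anterior medial replicate 1 (0.0788) or 2 (0.0584). Without any 1 lateral library Bmp3 was below the minimum. Summed cartilage markers (Sox9, Col2a1, Acan, Col9a1, Matn1) ran from 67.6 to 109 RPKM in anterior medial and from 20.7 to 21.7 in anterior lateral, and epithelial ones from 101 to 151 and from 51.1 to 99.2. Of 7 epithelial genes tested, Krt14 (-2.15, SE 0.28, limma adjusted p = 0.0104) and Krt17 (-2.50, SE 0.38, limma adjusted p = 0.0178) were lower in lateral. Krt8 was higher there (1.36, SE 0.27, limma adjusted p = 0.0498). The part of these cell types in the ligand differences was not tested.

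In the posterior palate no ligand passed the test between lateral and medial. No sequencing run held libraries of both compartments, so here too run and compartment cannot be told apart. Of the 6 ligands over the minimum Bmp3 had the largest difference, from 66.6, 37.7 and 65.0 RPKM in medial to 23.9, 9.50 and 42.2 in lateral, a difference of -1.36 (SE 0.59, limma adjusted p = 0.957). The ranges met, since the highest lateral library lay above the lowest medial one. By limma 0 of 10324 genes were called, with 1.54% of genes and 0 of 6 ligands at an unadjusted p under 0.05. Separate ranges were seen for 6.62% of genes and 0 of 6 ligands. Bmp2 was at -0.26 (SE 0.28), Bmp4 at 0.07 (SE 0.77), Bmp6 at 1.05 (SE 1.87), Bmp7 at -0.67 (SE 0.35) and Gdf10 at 0.77 (SE 0.47). The SE of Bmp6 rests on posterior medial replicate 2, where it is listed at 0, and without it the difference was -1.15. Bmp5, below the minimum, was separate here, at 1.51 to 9.49 RPKM in lateral and at most 1.44 in medial. With no filter its difference was 3.40 (SE 1.22, limma adjusted p = 0.938).

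Oral was set against nasal to compare the lower and upper faces of the palate. In the anterior palate Bmp2, Gdf10 and Gdf6 were all lower in every oral library than in any nasal one, but 0 of 10684 genes passed the limma test adjusted over all genes. Bmp2 read 17.0, 14.4 and 20.9 RPKM in oral and 27.3 to 34.7 in nasal, a difference of -0.80 (SE 0.24, limma adjusted p = 0.923). Gdf10 read 1.16 to 4.11 RPKM in oral and 4.80 to 13.5 in nasal, a difference of -1.60 (SE 0.51, with a limma adjusted p of nearly 1). Unadjusted p-values under 0.05 were found for 2.98% of genes and separate ranges for 3.67%. Bmp2 and Gdf10 had both, but Gdf10 reached the minimum only through nasal libraries, which set its separation in part. The nasal library at 4.80 RPKM lay under the minimum, so its place was not set by the filter. Gdf6, below the minimum, read 2.94, 3.77 and 1.66 RPKM in oral, below the 4.52 to 6.94 RPKM of nasal, and was not called in the fit with no filter either.

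Within the 3 sequencing runs that held both compartments, each of these ligands was lower in oral in 3 of 3. Each run held 1 oral library, and 1 or 2 nasal ones. The log2 differences ran from -1.27 to -0.38 for Bmp2, from -1.97 to -1.17 for Gdf10 and from -1.43 to -0.26 for Gdf6. Bmp3 (0.00, SE 0.56), Bmp4 (0.26, SE 0.40), Bmp6 (-0.60, SE 0.80) and Bmp7 (-0.54, SE 0.74) showed no steady direction, and each was lower in oral in 1 or 2 of the 3 runs. Cartilage markers summed to 19.7 to 48.8 RPKM in anterior oral and 57.4 to 101 in anterior nasal, beside which the part of other cell types was not tested.

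In the posterior palate Bmp6 and Gdf10 were lower in oral than in nasal. Bmp6 read 3.83, 6.40 and 2.83 RPKM in oral and 24.4, 15.5 and 16.2 in nasal, a difference of -2.13 (SE 0.33, limma adjusted p = 0.0273). Gdf10 read 12.7, 9.52 and 9.68 RPKM in oral and 53.5, 38.1 and 34.3 in nasal, a difference of -1.96 (SE 0.25, limma adjusted p = 0.0142). Bmp4 went the other way, at 44.6, 40.9 and 40.9 RPKM in oral and 15.6, 18.6 and 8.03 in nasal, but its difference of 1.66 (SE 0.32) had a limma adjusted p of 0.0549. All 3 pairs of ranges were separate. Bmp6 reached the minimum through the nasal libraries and 1 oral one. Of 10586 genes 1.25% were called, and 2 of 7 ligands. Separate ranges were seen for 11.8% of genes and 3 of 7 ligands.

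Bmp2 (0.19, SE 0.23), Bmp3 (-0.36, SE 0.22), Bmp5 (0.08, SE 0.31) and Bmp7 (-0.78, SE 0.36) did not pass. The 2 sequencing runs that held both compartments had 1 oral and 1 nasal library, and 2 oral and 1 nasal. In them Bmp6 was lower in oral by -2.64 and -1.84, Gdf10 by -2.07 and -1.98, and Bmp4 was higher by 1.51 and 1.13. In the fit of all 25 libraries, with the differences unaltered, neither Gdf10 (limma adjusted p = 0.169) nor Bmp6 (nearly 1) was called. With the sequencing run added they were at -2.02 (limma adjusted p = 0.473) and -2.18, and again not called. With no filter both calls were lost (limma adjusted p = 0.144 for Bmp6 and 0.102 for Gdf10), as was that of Bmp6 with a minimum of 1 RPKM (0.0548). The Bmp6 call was lost with the replicate block (limma adjusted p = 0.0524) and on leaving out any library but posterior oral replicate 2 (0.0768 to 0.132). The Gdf10 call was lost on leaving out posterior oral replicate 3 or any posterior nasal library (0.0530 to 0.0615). The Bmp4 difference was called under 4 alternatives, at limma adjusted p of 0.0374 to 0.0433.

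Markers of several other cell types differed between the same compartments. Of 8 osteoblast markers (Runx2, Sp7, Ibsp, Alpl, Spp1, Bglap, Phex, Dmp1) 4 reached the minimum and all 4 were lower in posterior oral. The summed level of the 8 was 380 to 555 RPKM in posterior nasal, 87.0 to 108 in posterior oral and 51.0 to 199 in the other 6 compartments. The cartilage gene Acan (-3.23, SE 0.43, limma adjusted p = 0.0149) and the epithelial keratin Krt18 (-1.61, SE 0.26, limma adjusted p = 0.0284) were also lower in oral. Each was the only gene called of 4 tested in its list. Summed cartilage markers overlapped, at 65.5 to 109 RPKM in posterior oral and 91.7 to 143 in posterior nasal. Summed epithelial markers overlapped too, at 29.95 to 51.2 and 39.3 to 73.7 RPKM. Summed endothelial markers were higher in oral, at 135 to 193 RPKM in posterior oral and 58.2 to 89.2 in posterior nasal. Of 6 endothelial genes tested, only Emcn was called, higher in oral (1.58, SE 0.28, limma adjusted p = 0.0401). Across the 25 libraries, which differ in depth and run, log2 levels were set against the summed osteoblast and the summed cartilage markers by Pearson's r. Gdf10 had 0.59 with osteoblast and 0.74 with cartilage markers, Bmp6 had 0.45 and 0.26, Bmp5 0.48 and 0.13, and Bmp4 -0.50 and -0.28. With the summed endothelial markers Gdf10 had -0.53 and Bmp4 0.35. Bmp2 had 0.66 with the summed epithelial markers and Bmp5 -0.66. Lists of other cell types gave r of like size, so these values do not single out the skeletal lists. Bmp6 had 0.48 with nerve and Schwann, 0.44 with skeletal muscle and -0.45 with mesenchyme markers. Bmp5 had 0.53 with skeletal muscle and Gdf10 0.45 with macrophage markers. These are descriptions over libraries that share compartments, and the part of cell mixture in the ligand levels was not tested.

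Whether the side-to-side differences themselves changed along the palate was tested as an interaction. The anterior less the posterior value of the lateral minus medial difference was 3.74 for Bmp3 (SE 0.78, limma adjusted p = 0.326). For Gdf10 it was -2.81 (SE 0.87) and for Bmp2 -0.68 (SE 0.26), both with a limma adjusted p of 0.964. By limma 0.00902% of 11089 genes were called and 0 of 6 ligands, with 3 ligands and 3.36% of genes at an unadjusted p under 0.05. The same contrast of the oral minus nasal difference gave negative values for Bmp2 (-0.99, SE 0.30, limma adjusted p = 0.663) and for Bmp4 (-1.40, SE 0.55, with a limma adjusted p of 1). By limma 0.0350% of 11442 genes were called and 0 of 7 ligands, with 2 ligands and 3.38% of genes at an unadjusted p under 0.05. A change of these differences from the anterior to the posterior palate was therefore not called for any ligand. At neither end of the palate did a sequencing run hold both lateral and medial libraries, so run and compartment cannot be told apart there.

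The partners of the ligands were followed in lists of pathway genes. The ligand-binding type I receptor Bmpr1a had compartment means from 50.7 to 63.1 RPKM and the type II receptor Bmpr2 from 62.7 to 79.3, while the type I receptor Bmpr1b stayed between 0.659 and 2.71 RPKM. Among 14 receptors and co-receptors none passed between posterior and anterior (0 of 7 tested by limma, median log2 fold change -0.13 against 0.03 over all genes) or between posterior oral and nasal (0 of 10, median 0.53 against -0.01). Between anterior lateral and medial 1 of 9 was called (median -0.03, as over all genes), the co-receptor Tgfbr3, higher in lateral (0.94, SE 0.13, limma adjusted p = 0.0143). Of 10 Smads and Smad ubiquitin ligases, Smad9, a signal-carrying Smad of this pathway, was lower in anterior lateral than medial (-1.54, SE 0.20, limma adjusted p = 0.0110), 1 of 8 tested with a median of -0.03. None was called between posterior and anterior (0 of 7, median -0.01) or between posterior oral and nasal (0 of 9, median 0.00).

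Among the secreted antagonists, Htra1, a secreted protease, was higher in the posterior palate (0.74, SE 0.20, limma adjusted p = 0.0350). The median log2 fold change of the 11 antagonists tested there was 0.03, as over all genes.

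Of 14 genes that respond to BMP signals, 4 of 11 tested were lower in posterior oral than nasal and none was higher (median -0.53 against -0.01), where 1.25% of all genes were called. They were Sp7 (-3.08, SE 0.30, limma adjusted p = 0.00460) and Runx2 (-1.18, SE 0.21, limma adjusted p = 0.0419), which direct osteoblast formation and stand in the osteoblast list too, Dlx5 (-2.35, SE 0.35, limma adjusted p = 0.0227) and Hey1 (-1.81, SE 0.30, limma adjusted p = 0.0339). Between anterior lateral and medial 4 of 7 were called (median -0.50), against 2.51% of all genes. Id4 (-1.17, SE 0.12, limma adjusted p = 0.00447), Id1 (-0.94, SE 0.16, limma adjusted p = 0.0277) and Runx2 (-1.54, SE 0.25, limma adjusted p = 0.0248) were lower in lateral, and Msx1 was higher (1.90, SE 0.33, limma adjusted p = 0.0310). Between posterior and anterior 1 of 9 was called (median 0.09), the homeobox gene Msx1, lower in the posterior (-4.45, SE 0.67, limma adjusted p = 8.90e-05).

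Of 6 precursor-processing enzymes, the convertase Pcsk5 was lower in the posterior palate (-0.61, SE 0.17, limma adjusted p = 0.0428), 1 of 3 tested with a median of 0.18, and in anterior lateral (-1.01, SE 0.17, limma adjusted p = 0.0244), 1 of 4 with a median of -0.02. None of 4 was called between posterior oral and nasal (median -0.10). Of 21 other ligands of the wider family, 2 reached the minimum between posterior and anterior, and Inhba, the activin A subunit, was lower in the posterior (-1.25, SE 0.26, limma adjusted p = 0.00407; median of the pair -0.58). None of 4 was called between anterior lateral and medial (median 0.11) or posterior oral and nasal (median 0.09). By limma no gene of any of these lists was called between posterior lateral and medial or between anterior oral and nasal, where no gene of the whole table was.

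The genes whose levels ran most like each ligand were found by Pearson's r of log2 values over the 25 libraries, among 11913 genes. The 3 closest to Bmp2 were the convertase Pcsk5 (r = 0.814), Gdnf (0.783) and Cxcl14 (0.768). Those closest to Bmp3 were Adamts17 (r = 0.842), Tmem229a (0.826) and 4931408A02Rik (0.799), and to Bmp4 Ntng1 (0.809), Sema5b (0.787) and Cdh20 (0.780). In the class of Bmp5 to Bmp7, Npnt (r = 0.813), Rcan2 (0.813) and Pdzrn4 (0.788) were closest to Bmp5, C130050O18Rik (0.925), Cox4i2 (0.923) and Pgam2 (0.903) to Bmp6, and Tmcc2 (0.766), Lrrc16a (0.744) and Tmem132c (0.737) to Bmp7. Gdf10 ran closest to Mkx (r = 0.866), a tendon homeobox gene, Ptprv (0.832) and Dact1 (0.820). Over the 8 compartment means Pcsk5 (r = 0.963), A2m (0.943) and Gdnf (0.928) were closest to Bmp2, so that Pcsk5 came first both ways. For Bmp3 they were Grip1 (0.966), Adamts17 (0.965) and Lama1 (0.941), for Bmp4 Peli2 (0.987), Mr1 (0.973) and Car10 (0.961), and for Bmp5 Chd3 (0.976), Enpp5 (0.964) and Pold4 (0.945). For Bmp6 they were Ankrd6 (r = 0.963), C130050O18Rik (0.961) and Rnf34 (0.954), for Bmp7 Baz1b (0.954), Ifi27l1 (0.945) and Pi4k2a (0.924), and for Gdf10 Ptn (0.990) and Trim23 (0.985), followed by Mlec. Among the ligands themselves the pair with the strongest relation over the 25 libraries was Bmp2 and Bmp3, with r = -0.73, and Bmp3 and Bmp4 had r = 0.53. Bmp6 and Gdf10, both highest in posterior nasal, had r = 0.10. These libraries share compartments and runs, and the values are given as descriptions.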

How the data were processed

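RNA from laser capture microdissected palate was amplified (NuGEN Ovation RNA-Seq V2), tagmented (Nextera) and sequenced. The authors deposited 1 table of RPKM values, made with GeneSpring 12.6.1 from reads without duplicates and without several alignments. The submitters' processing notes name TopHat and mm9 with no role given. Each RPKM is therefore already scaled to depth and transcript length, and reads of near-identical genes are missing from it. Depth was worked out from low values, which mostly step by what 1 read is worth, and 298 of 300 library pairs gave the same ratio by way of another library. For Bmp4 no whole transcript length was found, so its reads are not printed. Reads of the other ligands rest on the first whole length that fitted their values. Only that of Gdf6 was among the GENCODE transcript lengths of its gene, so these reads and counting errors are estimates.

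The labels gave groups and replicate numbers. Which of 8 sequencing runs a library came from was read from alignment names in the study's tables. Comparisons used two-sided tests of limma 3.58.1 (R 4.3.3) on log2(RPKM + 0.1), with Benjamini-Hochberg adjustment over all genes tested and a threshold of 0.05. Pairs of compartments were fitted on their own libraries over genes with at least 5 RPKM in 3 of them, and all posterior against all anterior libraries over genes with at least 10 RPKM in 6. Differences inside a compartment and over the 8 compartments came from 1 model of the 25 libraries. The tests were tested on simulated data. With 3 samples against 3, an exact permutation test cannot pass 0.05, so none was used. The 9 ligands, the pathway lists and the marker lists were chosen with earlier results of these data known. Pathway genes are named, up to 4 a list and comparison, where called, with the smallest adjusted p, beside receptors given for their role. One gene of the antagonist list, and the counts of calls in that list, are not reported here. The genes most like a ligand are the 3 with the highest correlation over the libraries and over the compartment means. Alternatives were other pseudocounts, minimums, normalizations, a variance trend, the replicate block, the run as covariate and leaving out each library. Fits without the libraries alone in their run, and all alternatives for differences inside a compartment, were chosen after seeing the data. Replicate numbers had no stated meaning. Same-numbered libraries deviated together (correlations over 0.1 across genes in every pair) between anterior oral and nasal (0.239, 0.214 and 0.130), where the block changed no call. The highest correlation there was of a differently numbered pair from the same run, oral replicate 2 and nasal replicate 3 (0.504). The numbers therefore cannot be read as marking matched libraries. Promoters are RefSeq windows of GRCm38.p6, another build than that of the table's coordinates, and were matched by symbol. Figures used Python 3.11.15, pandas 2.3.3 and matplotlib 3.10.9.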

Additional observations from a re-analysis of the deposited data

Results flagged for a closer look

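Bmp3 in anterior nasal was the 1 of 9 ligands with a library far from the others of its group, tested in the only compartment with 4 replicates. Replicate 1 read 22.9 RPKM and the others 8.72, 6.81 and 8.74, so that the gap made up 0.880 of the range, above Dixon's limit for 4 samples. Chance gives such a gap in about 1 of 20 groups. Leaving that library out moved the oral minus nasal log2 difference of Bmp3 from 0.00 to 0.38 and its posterior minus anterior difference in the nasal compartment from 1.05 to 1.42, neither of them called by limma.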

How the results depend on the processing

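The 3 ligands called between posterior and anterior were the same in all 36 alternatives, and 0 ligands were called in any alternative of posterior lateral against medial, anterior oral against nasal, the oral compartment or the interactions. Values below are log2 differences unless they are counts of ligands called. The cause of a change was not tested. Leaving out the filter adds genes to the adjustment and also alters the SE and the unadjusted p of each ligand. The SE of Bmp2 between anterior lateral and medial went from 0.12 to 0.13, and that of Bmp6 between posterior oral and nasal from 0.33 to 0.38.

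For anterior lateral against medial, 2 ligands were called, and 0 with no filter, 1 with a minimum of 1 RPKM, 1 in the fit of all 25 libraries, 0 with the run as covariate and 0 to 2 on leaving out a replicate. For posterior oral against nasal, 2 were called, and 0 with no filter, 1 with a minimum of 1 RPKM, 1 with the replicate block, 0 in the fit of all 25 libraries, 0 with the run and 0 to 2 on leaving out a replicate. Inside compartments the run as covariate left 1 in medial (of 2), 0 in lateral (of 1) and 0 in nasal (of 2), and the replicate block 1 in nasal, as did leaving out replicates there (1 to 2).

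Of the values for single ligands, 1192 kept their direction and their side of the threshold, 44 lost a call, 5 gained one and 52 turned sign. Every reversal was of a difference that was not called. Between posterior and anterior Bmp6 turned to 0.0586 with quantile normalization and Bmp7 to -0.29 with the run, and on leaving out a replicate they ran from -0.44 to 0.29 and from -0.0047 to 0.31. For posterior lateral against medial Bmp6 turned to -0.78 with quantile normalization and ran from -1.15 to 1.51 on leaving out a replicate, and Bmp4 from -0.56 to 0.71. For anterior oral against nasal Bmp3 was -0.0233 with centring, -0.0739 with quantile normalization and -0.0827 with the replicate block, and on leaving out a replicate ran from -0.48 to 0.53, Bmp4 from -0.0516 to 0.47, Bmp6 from -1.60 to 0.40 and Bmp7 from -1.55 to 0.17. For posterior oral against nasal Bmp5 ran from -0.0145 to 0.33. In the medial-lateral interaction Bmp7 ran from -0.67 to 0.16 and Bmp6 from -3.19 to 0.43, and in the oral-nasal one Bmp7 from -0.77 to 0.95, Bmp3 from -0.12 to 0.88 and Gdf10 from -0.0127 to 0.86.

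Inside the medial compartment Bmp5 was -0.0313 with the run and without the libraries alone in their run, and on leaving out a replicate ran from -0.51 to 1.46, Bmp7 from -0.67 to 0.0299 and Bmp6 from -3.57 to 0.0479. In lateral Bmp6 was 0.42 and Bmp7 0.13 with the run, Bmp6 was 0.0710 without the libraries alone in their run, and on leaving out a replicate Bmp6 ran from -1.03 to 0.0710 and Bmp7 from -0.46 to 0.32. In oral Bmp6 was -0.50 with the run and -0.0831 with a pseudocount of 1, Bmp7 was -0.53 with the run, and on leaving out a replicate Bmp6 ran from -0.95 to 1.05, Bmp7 from -0.28 to 1.44 and Bmp2 from -0.29 to 0.0083. In nasal Bmp7 was -0.34 with the run.

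The replicate block changed no call other than those of Bmp6 (-2.13, limma adjusted p = 0.0524) between posterior oral and nasal, Gdf10 (2.22, limma adjusted p = 0.0652) in nasal and Bmp5 over the 8 compartments. Libraries of 1.64 to 6.56 M reads limit the low ligands most: at its median of 16 reads a library Bmp5 has a counting error of 25%, against 8.2% for Bmp2.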
